A study of Homo sapiens with 4 samples.

Results

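Collagens, laminins and integrins are the proteins of the extracellular matrix and the receptors that hold cells to it. Their genes were taken from the RefSeq table of GRCh38 by symbol: COL, number, A, number for collagens, LAMA, LAMB or LAMC and a number for laminins, and ITGA or ITGB with a number or a letter for integrins. The autosomes and the X chromosome carry 19905 protein-coding genes with a span under 1 Mb, of which 81 met the rule, 44 collagen, 12 laminin and 25 integrin genes. Symbols with a number and a letter, such as ITGA2B, stayed outside it. A gene was credited with every peak whose summit fell inside its annotated span or up to 1 kb outside.

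The mark measured was H3K4bhb, beta-hydroxybutyrylation of lysine 4 of histone H3, by ChIP-seq in HK-2, an established line of human renal tubular epithelium. Of 2 treatments, H2O2 stood for the oxidant hydrogen peroxide alone and H2O2 + BHBNa for the oxidant after pretreatment with sodium beta-hydroxybutyrate. The labels gave no dose and no time, and no untreated cells and no cells given BHBNa alone were analysed here. Both treatments were sampled once, by 1 immunoprecipitated (IP) library with 1 control, called IgG in the titles and input in the library names, and are represented by 1 peak list each, so nothing below has a replicate check and no p-value compares the treatments.

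Collagen chains assemble in threes into triple helices. Type IV collagen forms the sheet of the basement membrane, where tubular cells sit, together with laminins, which are trimers of an alpha, a beta and a gamma chain. Integrins, pairs of an alpha and a beta subunit, bind collagens, laminins and other ligands at the cell surface and link them to the cytoskeleton. In the injured kidney, matrix of this kind accumulates between the tubules. Beta-hydroxybutyrylation is a lysine acylation that depends on the supply of the ketone body beta-hydroxybutyrate.

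Few of the peaks lay near a place where transcription starts, and the promoters that bear on the results are shown here. The windows run from 250 bases before an annotated start to 50 after it, 5′ to 3′ on the gene's strand, from RefSeq (GRCh38.p14). Promoter sequence was matched for 57 of the 81 genes. LAMA2 is shown because it was the 1 gene with a summit within 1 kb of an end of its span (chr6:128882888-128883187, plus strand). COL10A1 is shown at its annotated internal start, the 1 other listed start with a summit within 1 kb (chr6:116158723-116159022, minus strand). COL4A2 (chr13:110307034-110307333, plus strand) stands for the head-to-head pair COL4A1 and COL4A2, and its window also holds the COL4A1 start, at base 124, on the other strand. COL4A3 (chr2:227164374-227164673, plus strand) and COL4A4 (chr2:227164156-227164455, minus strand) are the second head-to-head pair, in which both genes held peaks. Capitals mark GC boxes (GGGCGG) and CCAAT boxes (CCAAT), searched on both strands, and no base of these windows belonged to both motifs.
LAMA2: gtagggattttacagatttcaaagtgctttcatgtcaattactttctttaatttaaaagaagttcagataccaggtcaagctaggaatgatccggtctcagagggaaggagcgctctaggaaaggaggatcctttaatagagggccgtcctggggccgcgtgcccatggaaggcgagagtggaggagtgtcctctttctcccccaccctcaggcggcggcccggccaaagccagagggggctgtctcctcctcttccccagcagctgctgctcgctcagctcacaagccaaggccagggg
COL10A1 internal start: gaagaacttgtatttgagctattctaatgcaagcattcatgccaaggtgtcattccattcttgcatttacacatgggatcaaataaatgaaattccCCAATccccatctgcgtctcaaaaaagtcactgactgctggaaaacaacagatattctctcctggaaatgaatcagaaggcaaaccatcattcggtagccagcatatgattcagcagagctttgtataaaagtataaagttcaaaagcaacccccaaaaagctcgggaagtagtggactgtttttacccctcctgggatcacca
COL4A2: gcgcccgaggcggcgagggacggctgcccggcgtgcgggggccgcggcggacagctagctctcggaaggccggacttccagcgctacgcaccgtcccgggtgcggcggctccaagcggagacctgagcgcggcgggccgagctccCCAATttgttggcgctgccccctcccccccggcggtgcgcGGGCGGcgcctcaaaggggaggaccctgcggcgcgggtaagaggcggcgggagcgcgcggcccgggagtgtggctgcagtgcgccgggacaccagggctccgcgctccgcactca
COL4A3: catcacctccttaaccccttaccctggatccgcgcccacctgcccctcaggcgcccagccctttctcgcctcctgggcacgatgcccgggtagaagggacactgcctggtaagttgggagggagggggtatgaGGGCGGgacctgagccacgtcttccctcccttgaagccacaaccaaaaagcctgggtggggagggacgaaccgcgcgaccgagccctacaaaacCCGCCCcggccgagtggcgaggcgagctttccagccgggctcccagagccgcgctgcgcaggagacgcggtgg
COL4A4: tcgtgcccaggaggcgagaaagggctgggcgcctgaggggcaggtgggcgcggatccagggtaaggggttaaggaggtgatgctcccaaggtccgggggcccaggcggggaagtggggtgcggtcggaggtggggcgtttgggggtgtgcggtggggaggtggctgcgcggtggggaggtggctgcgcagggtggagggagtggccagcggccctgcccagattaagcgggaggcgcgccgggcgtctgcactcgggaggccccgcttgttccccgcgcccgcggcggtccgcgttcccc

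The LAMA2 window had a GC content of 55.3% with 10 CpG sites and neither motif. The COL10A1 internal window had a GC content of 41%, 3 CpG sites and 1 CCAAT box. COL4A2 had 77.7% GC, 45 CpG sites, 1 GC box and 1 CCAAT box, COL4A3 had 67.7% GC, 24 CpG sites and 2 GC boxes, and COL4A4 had 74% GC, 29 CpG sites and neither motif. A GC box was found in the outermost promoter of 31 of the 57 genes, 54.4%, and of 58.4% of 15756 protein-coding genes. For the CCAAT box the shares were 12 of 57, 21.1%, and 36.4%. Of the 27 genes of the 57 with a peak in either list, 11 had a GC box (40.7%), and of the 30 with no peak, 20 (66.7%). For the CCAAT box the counts were 8 (29.6%) and 4 (13.3%). Genes with a peak were longer, as given below, and no like-length share was worked out for these motifs. A link between motif and peak was not tested. The median promoter of the 27 held 18 CpG sites, that of the 30 held 19.5, and over all 15756 genes 22. Such matches describe letters only, and the peaks lay mostly elsewhere.

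In the H2O2 list, 17 of the 81 genes had a peak (21%), against 7.7% of all protein-coding genes. With BHBNa pretreatment the count was 32 of 81 (39.5%), against 15.2% of all genes. These genes are long, with a median span of 90.8 kb against 24.1 kb over all genes, and long genes hold more peaks. Other genes with a span within 20% of each member's, here called genes of like length, had a peak in 18.2% of cases in the H2O2 list and 32.9% after BHBNa pretreatment. For 81 genes this comes to 14.7 and 26.6, so most of the distance from all genes went with length. Peaks in both lists were found in 14 of the 81 genes, against 4.04% of all genes and 8.56 of 81 at like length. Another 3 genes (COL1A2, COL5A2 and LAMB1) had a peak only after H2O2, 18 only after BHBNa pretreatment, and 46 had none. Over all 19905 genes, 1533 had an H2O2 peak, 3019 an H2O2 + BHBNa peak and 805 both. Genes with a peak only after BHBNa pretreatment were thus the more numerous there too, as at like length. The 3 and 18 are therefore not read as a trait of the 81. How many cells carry the mark at a site and how much each carries cannot be told apart in these bulk samples.

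**Figure D1:**
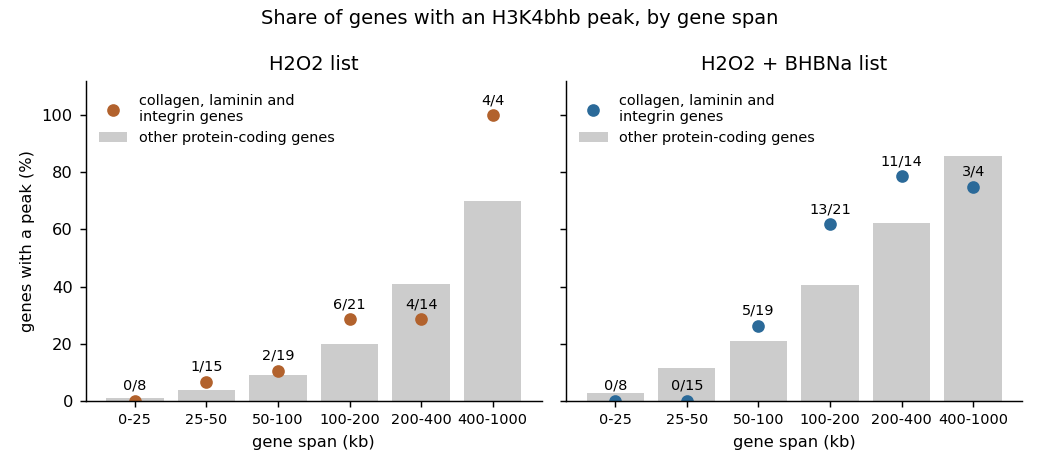
Share of genes with a peak (y axis, %) by gene span (x axis, kb) in each list. Bars are all other protein-coding genes and points the collagen, laminin and integrin genes, with their counts. The bars rise with span throughout, and the points are lowest in the bins under 50 kb. Of members from 100 to 200 kb, 6 of 21 had a peak in the H2O2 list and 13 of 21 after BHBNa pretreatment.

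Genes with a peak were longer, although the spans overlapped widely. The 35 genes with a peak in either list had a median span of 176 kb (36.3 to 633) and the 46 with none 50.7 kb (11.9 to 371). Of 23 members under 50 kb, 1 held a peak in the H2O2 list (COL1A2) and 0 in the H2O2 + BHBNa list, where like length gives 0.658 and 2.1. Short members without a peak include COL1A1 and COL2A1, chains of fibrillar collagens of bone and cartilage, LAMB2, the beta chain of the mature glomerular basement membrane, and ITGA5, the alpha subunit of a fibronectin receptor. For them 0 peaks tell little. In the H2O2 + BHBNa list, 10.6% of genes of the length of COL2A1, 7.6% of those like ITGA5, 5.03% of those like COL1A1 and 3.18% of those like LAMB2 had any peak. Among the 39 members of at least 100 kb, 14 and 27 had a peak in the H2O2 and H2O2 + BHBNa lists, where like length gives 12.3 and 20.4.

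Peaks in or near the 81 genes numbered 29 in the H2O2 list and 57 after BHBNa pretreatment. This is 2.62 peaks per Mb (95% exact Poisson interval 1.75 to 3.76) and 5.14 per Mb (3.89 to 6.66). All protein-coding genes together had 1.72 and 3.64 per Mb, and genes of like length give 1.83 and 3.74. The like-length value lay within the interval for H2O2 and below it for H2O2 + BHBNa. COL25A1 alone held 6 peaks in each list, and without it the counts were 23 and 51 peaks, where like length gives 19 and 39.4, and the densities 2.17 (1.38 to 3.26) and 4.81 (3.58 to 6.33). Both of these intervals hold the like-length density, 1.8 and 3.72, so after BHBNa pretreatment the like-length value fell outside the interval with COL25A1 and inside it without. These intervals cover counting error only.

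Depth differed between the lists, as did these counts, and any link between them was not tested. From the fold and p that the authors deposited, the count of IP fragments over each summit (the pileup) and the background expected there from the control were worked back. The lowest background, a floor that follows how many reads were used, was 0.274 fragments for H2O2 and 0.102 for H2O2 + BHBNa, a ratio of 2.68. Over all peaks the lists held 6251 and 11510, so the list with the higher floor held fewer. A peak in the 81 genes rested on 3 to 8 IP fragments after H2O2 (median 5) and on 2 to 5 with BHBNa pretreatment (median 3). Exactly 2 fragments lay under 27 of the 57 H2O2 + BHBNa peaks, 47.4%, against 51.9% of that whole list, while no H2O2 peak had fewer than 3. With at least 3 fragments required in both lists, 17 and 21 of the 81 genes had a peak, with 29 and 30 peaks, where like length gives 14.7 and 15.1 genes. Under that limit the lists differed by 1 peak in these genes, although the same fragment number stands over a lower background in the H2O2 + BHBNa list. Whether BHBNa changed the mark there was not tested.

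**Figure D2:**
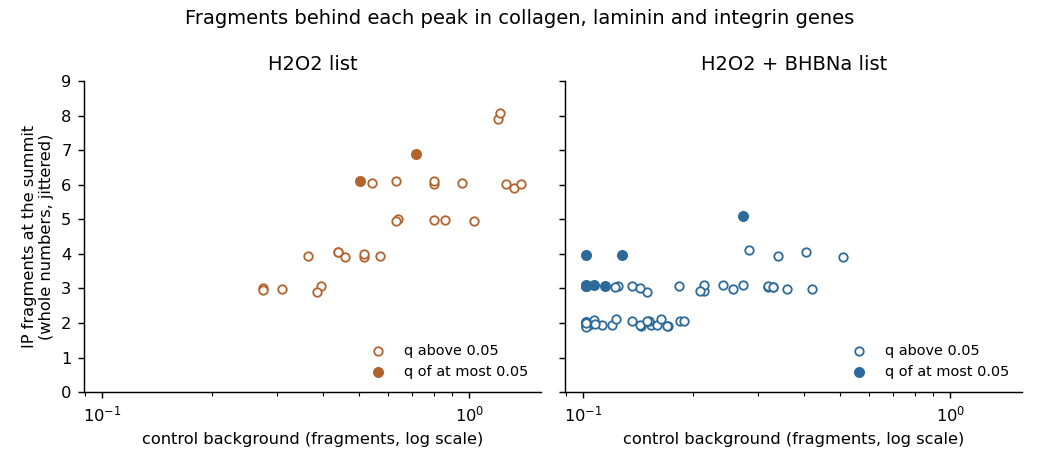
IP fragments at the summit (y axis) against control background in fragments (x axis, log scale) for the 29 H2O2 and 57 H2O2 + BHBNa peaks in the 81 genes. Filled points have a q of at most 0.05. The H2O2 + BHBNa points sit at lower backgrounds, where 3 fragments reached that limit at 0.102 to 0.115, while the 2 filled H2O2 points had 6 and 7 fragments.

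The q-value, the authors' p adjusted over a list, was at most 0.05 for 2 of 29 H2O2 peaks, 6.9% (Wilson 95% interval 1.91 to 22), and for 8 of 57 H2O2 + BHBNa peaks, 14% (7.29 to 25.3). In the whole lists the shares were 7.23% and 15.2%. Counted by gene, 2 of the 81 held such a peak in the H2O2 list and 8 after BHBNa pretreatment, against 0.678% and 2.95% of all genes and 1.33 and 5.23 of 81 at like length. The 2 were COL8A1 and COL4A6. The 8 were COL4A2, COL25A1, LAMA4, COL4A1, COL4A4, COL13A1, COL22A1 and ITGB3. No gene was among both, and of all protein-coding genes 0.106% had such a peak in both lists. The authors' fold enrichment over control is a value within each list, and its median in these genes was 3.43 (2.87 to 4.66) after H2O2 and 2.94 (2.52 to 4.72) after BHBNa pretreatment, against 3.51 and 2.72 over the whole lists.

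**Figure D3:**
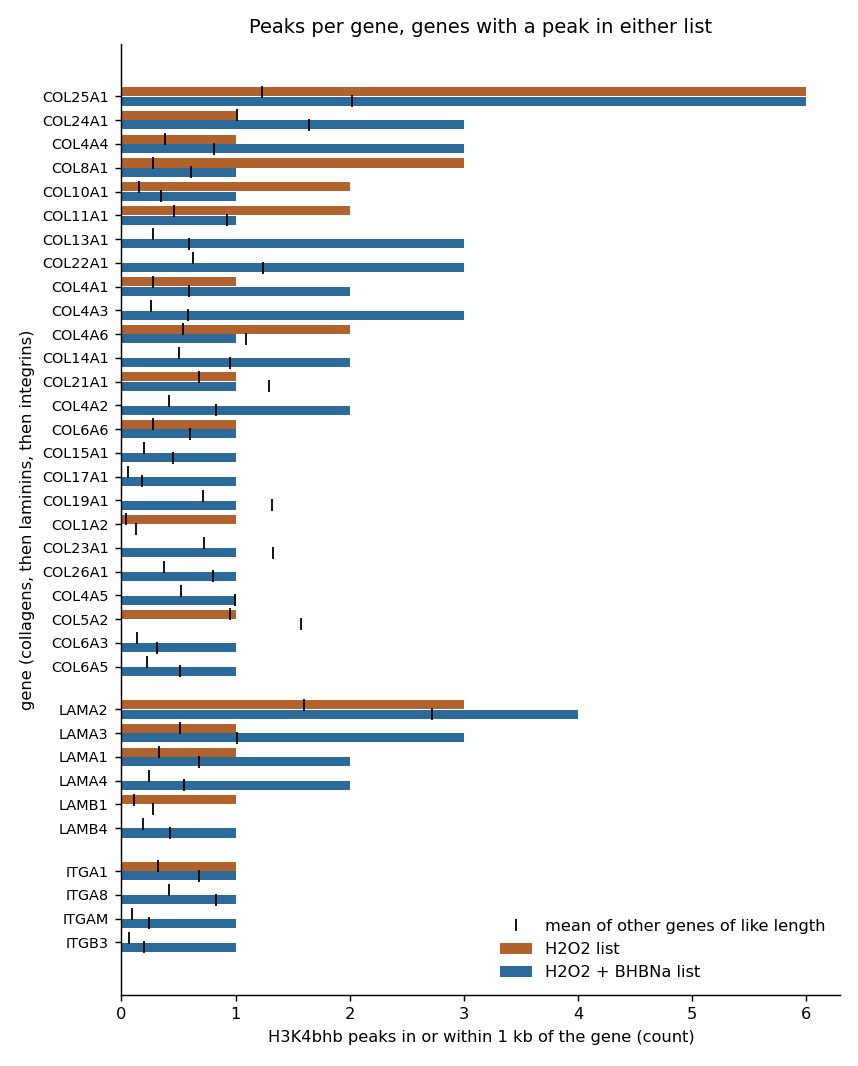
Number of peaks (x axis) in each of the 35 genes with a peak in either list (y axis), by family and then by total. Bars give the 2 lists and black ticks the mean number in other genes of like length. COL25A1 stands out with 6 peaks in each list.

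Among collagen genes, 12 of 44 had a peak in the H2O2 list and 23 of 44 after BHBNa pretreatment, where like length gives 9.6 and 16.6. With at least 3 fragments the counts were 12 and 17, where like length gives 9.6 and 9.61. The genes are taken below by the kind of collagen they encode.

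All 6 genes of basement membrane collagen IV held a peak in the H2O2 + BHBNa list, 12 peaks in all, where like length gives 3.16 genes and 4.91 peaks. In the H2O2 list 3 of the 6 did, with 4 peaks, where like length gives 1.84 genes and 2.39 peaks. With at least 3 fragments the H2O2 + BHBNa count fell to 4 of 6 genes and 4 peaks, where like length gives 1.81. These genes lie in 3 head-to-head pairs with 126 to 379 bp between their spans, and both genes of each pair held an H2O2 + BHBNa peak. No summit lay at the shared promoters.

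COL4A1 and COL4A2 encode the chains present in nearly every basement membrane. COL4A1 (chromosome 13, 110148963 to 110307157) had a peak of fold 3.88 in the H2O2 list (chr13:110238795-110239220), from 6 fragments over a background of 0.803, with a q of 0.202. Its 2 H2O2 + BHBNa peaks had folds of 3.61 (chr13:110211743-110212074, q of 0.0484, 3 fragments over 0.107) and 2.72 (q of 0.326, 2 fragments). The nearest pair of the 2 lists was 27.2 kb apart. COL4A2 (110307284 to 110513209) had no H2O2 peak. Its 2 H2O2 + BHBNa peaks had folds of 4.54 and 2.72. The higher, at 110497823 to 110498144, lay 191 kb from the start in a gene of 206 kb, with 4 fragments over a background of 0.102 and a q of 0.00322, the lowest q of any peak in the 81 genes.

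COL4A3 and COL4A4 encode chains of the glomerular and some tubular basement membranes. Each held 3 H2O2 + BHBNa peaks, where like length gives 0.579 and 0.811. Of 1093 genes of the length of COL4A3, 25 had at least 3 peaks in that list (2.29%), and of 788 like COL4A4, 46 (5.84%). Here and below, shares of genes with as many peaks are given only for members with at least 3 in a list. Those members were picked for that count, so the shares are no test. The COL4A3 peaks had folds of 3.57, 2.70 and 2.56 from 3, 2 and 2 fragments, with q from 0.0536 to 0.326. All 3 also lay inside MFF-DT, a gene that overlaps COL4A3, so they cannot be given to COL4A3 alone. COL4A4 had folds of 3.63 (chr2:227111067-227111312, q of 0.0484, background 0.102), 2.72 and 2.61 from 3, 2 and 2 fragments, and an H2O2 peak (chr2:227159213-227159482) of fold 3.48 with 4 fragments over 0.439 and a q of 0.365, 4989 bp from its annotated start. COL4A3 had no H2O2 peak.

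COL4A5 and COL4A6, on the X chromosome, encode the remaining chains. COL4A6 held 2 H2O2 peaks, of folds 4.65 and 3.18. The first (108325698 to 108326046) had 6 fragments over a background of 0.505 and a q of 0.0493. Its H2O2 + BHBNa peak (chrX:108241555-108241976), 84.3 kb away, had a fold of 2.68 from 2 fragments over 0.12 (q of 0.326). COL4A5 had no H2O2 peak and an H2O2 + BHBNa peak of fold 2.58, also from 2 fragments.

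Transmembrane collagens are membrane proteins with collagen domains outside the cell. All 4 of their genes had an H2O2 + BHBNa peak, where like length gives 2.12, and 1 of 4, COL25A1, an H2O2 peak, where like length gives 1.41. Under the limit of 3 fragments, 3 of 4 genes remained after BHBNa pretreatment, where like length gives 1.34, and their peaks went from 11 to 6. COL25A1, the gene of a neuronal collagen that binds amyloid beta, spans 494 kb on chromosome 4 (108808725 to 109302658). It held 6 peaks in each list, where like length gives means of 1.23 and 2.02. None of the 275 other genes of like length had 6 in the H2O2 list, where the most was 5, and 10 of them (3.64%) had at least 6 in the H2O2 + BHBNa list.

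The 6 H2O2 peaks in COL25A1, from chr4:108923917-108924423 to chr4:109159476-109159838, had folds of 2.87 to 3.43, 3 or 4 fragments, and q from 0.407 to 0.532. Of these, 2 lay 888 bp apart. The H2O2 + BHBNa peaks had folds of 2.53 to 4.43, and the highest, at 109025802 to 109026125, had 4 fragments over a background of 0.128 and a q of 0.0057. This peak and the H2O2 + BHBNa peak at 109035323 to 109035586 also lay inside the overlapping gene LOC124900756. Although spread over the same gene, peaks of the lists were never closer than 12.1 kb. Flanks of the same length held 1 and 0 H2O2 peaks and 5 and 2 H2O2 + BHBNa peaks, on the lower- and higher-coordinate sides. Of the members with at least 3 peaks inside, 3 of 3 after H2O2 held more than each of their own flanks (COL25A1, COL8A1 and LAMA2). After BHBNa pretreatment 4 of 8 did, and COL22A1, COL24A1, COL4A3 and COL4A4 did not. COL4A3 and COL4A4 are neighbours, so the 3 H2O2 + BHBNa peaks of each lie in a flank of the other. All of these members were picked for a high count inside, which favours the inside over the flanks. Local enrichment therefore cannot be read from this comparison.

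COL13A1, another transmembrane collagen, held 3 H2O2 + BHBNa peaks, where like length gives 0.588, and of 1029 genes of like length 24 (2.33%) had as many. Of the COL13A1 peaks, 2 lay 448 bp apart near the far end of the gene. Their folds were 2.72 and 3.63 from 2 and 3 fragments, and the second had a q of 0.0484. The other peak, chr10:69816200-69816481, also lay inside LOC105378347, which overlaps COL13A1. COL17A1, a hemidesmosomal collagen of epithelia, had an H2O2 + BHBNa peak of fold 3.52 from 3 fragments (q of 0.0702). COL23A1 had 1 of fold 2.71 from 2 fragments. These 3 genes had no H2O2 peak.

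Fibrillar collagens form the banded fibres of interstitial matrix. Of 11 genes, 4 had a peak in the H2O2 list and 2 after BHBNa pretreatment, where like length gives 2.23 and 3.7. This was the 1 collagen subgroup with fewer genes in the second list than in the first. COL5A2, a chain of type V collagen, had an H2O2 peak of fold 4.53 with 6 fragments over 0.545 and a q of 0.0665. COL1A2, a chain of type I collagen, had an H2O2 peak of fold 3.02 with 6 fragments over 1.32 and a q of 0.494. Neither had an H2O2 + BHBNa peak. COL11A1, a chain of cartilage fibrils, had H2O2 peaks of folds 4.07 (chr1:102907410-102907675) and 3.10 with 8 and 6 fragments over 1.21 and 1.26 and an H2O2 + BHBNa peak of fold 2.81 (chr1:103037643-103037926) with 3 over 0.421, at least 18.8 kb away. COL24A1 had an H2O2 peak of fold 3.66 (chr1:86139952-86140188, 5 fragments over 0.638) and 3 H2O2 + BHBNa peaks of folds 2.94, 3.03 and 3.15 (chr1:85982039-85982301) from 3 fragments each, at least 158 kb away. Like length gives COL24A1 1.64 H2O2 + BHBNa peaks, and 86 of 331 genes of like length (26%) had as many. The lowest q among the peaks of COL11A1 and COL24A1 was 0.122. COL1A1, COL3A1, COL5A1 and the other members of this subgroup had 0 peaks in both lists.

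FACIT collagens sit on the surface of fibrils. Of 10 genes, 1 had a peak in the H2O2 list and 4 after BHBNa pretreatment, where like length gives 2.18 and 3.67. COL22A1 held 3 H2O2 + BHBNa peaks of folds 3.59 (q of 0.0484), 2.72 and 2.64, COL14A1 had 2 of folds 3.01 and 2.60, and COL19A1 had 1 of fold 3.03. For COL22A1 like length gives 1.24 peaks in that list, and 67 of 443 genes of like length (15.1%) had as many. COL21A1 had an H2O2 peak of fold 3.33 (chr6:56162535-56162858, 5 fragments over 0.803) and an H2O2 + BHBNa peak of fold 2.59 (chr6:56154632-56154881, 2 over 0.159), 8.06 kb apart, with q of 0.494 and 0.326.

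Collagen VI and related chains make beaded filaments around cells. Of 6 genes, 1 and 3 had a peak in the H2O2 and H2O2 + BHBNa lists, where like length gives 0.907 and 1.83. COL6A6 had an H2O2 peak (chr3:130589440-130589685) of fold 3.58 with 6 fragments over 0.957 (q of 0.314) and an H2O2 + BHBNa peak (chr3:130641895-130642257) of fold 3.30 with 3 over 0.213 (q of 0.201), 52.3 kb apart. COL6A5 and COL6A3 had H2O2 + BHBNa peaks of folds 3.30 and 3.38, with 3 fragments each. COL6A1 and COL6A2 had none.

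The remaining collagens had a peak in 2 and 4 of 7 genes, where like length gives 1.03 and 2.13. COL8A1, a network-forming collagen of vessels and of the matrix under some epithelia and endothelia, held 3 H2O2 peaks, where like length gives 0.281, and 4 of 1014 genes of like length (0.394%) had as many. Their folds were 3.68, 4.66 and 3.88 with 5, 7 and 6 fragments. The second, on chromosome 3 at 99723477 to 99723760, had a background of 0.718 and a q of 0.0438, the lowest of the H2O2 list in these genes. The H2O2 + BHBNa peak in COL8A1 (chr3:99682716-99682996) had a fold of 3.01 with 3 fragments over 0.329 and lay at least 23.1 kb away. COL10A1, the collagen of hypertrophic cartilage, had H2O2 peaks of folds 4.08 (chr6:116154788-116155131) and 2.95 with 8 and 5 fragments over 1.2 and 1.03, and an H2O2 + BHBNa peak of fold 3.56 (chr6:116163134-116163414) with 4 over 0.405, at least 5.04 kb away. All 3 also lay inside NT5DC1, which overlaps COL10A1. The summit of the second H2O2 peak was 509 bp from the internal start shown above, with a q of 0.523. COL15A1 and COL26A1 had H2O2 + BHBNa peaks of fold 2.72, from 2 fragments each.

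**Figure D4:**
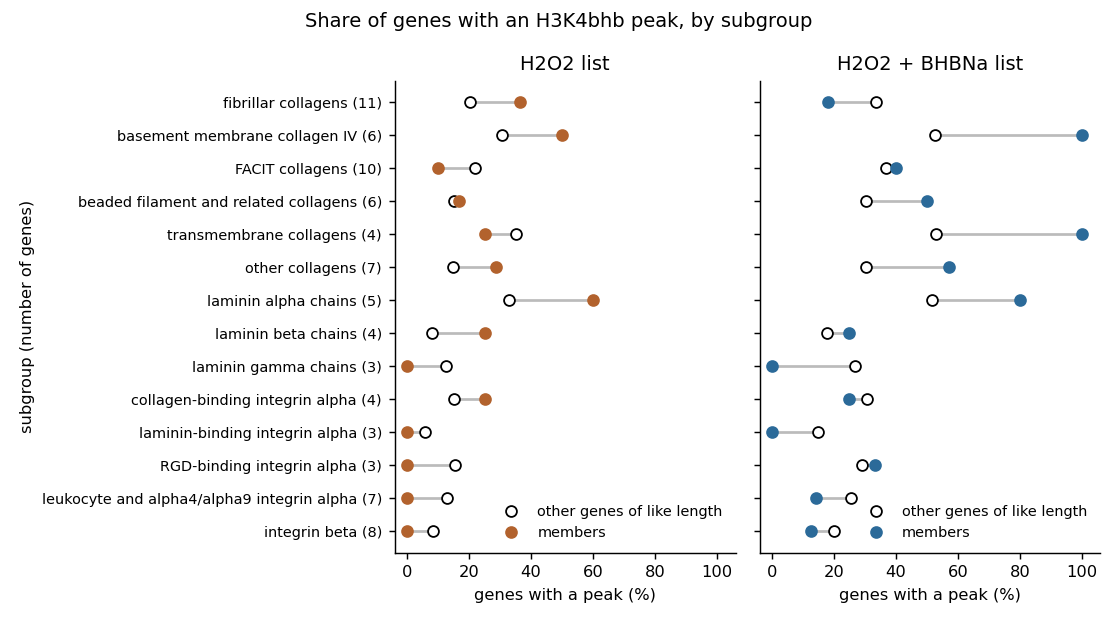
Share of genes with a peak (x axis, %) in each of 14 subgroups (y axis, number of genes in brackets), for the H2O2 list (left) and the H2O2 + BHBNa list (right). Filled points are the collagen, laminin and integrin genes and open points other genes of like length. Collagen IV and transmembrane collagens reach 100% in the H2O2 + BHBNa list, and 3 of the 5 integrin subgroups lie under like length in both.

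Laminin genes had a peak in 4 of 12 in the H2O2 list and 5 of 12 after BHBNa pretreatment, where like length gives 2.33 and 4.1. With at least 3 fragments the counts were 4 and 2, where like length gives 2.33 and 2.39, so the second count passed from above like length to below it. Alpha chains, which carry the main binding sites for integrins, made up most of them, 3 and 4 of 5, where like length gives 1.64 and 2.58. Gamma chains had a peak in 0 of 3 in both lists, where like length gives 0.371 and 0.807.

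LAMA2, the alpha chain of muscle and Schwann cell basement membranes, is the longest of the 81 genes at 633 kb. It held 3 H2O2 peaks and 4 H2O2 + BHBNa peaks, where like length gives 1.6 and 2.72, and 39 and 50 of 163 genes of like length had as many. The H2O2 peaks had folds of 4.29 (chr6:128932522-128932761), 2.95 and 3.23 with 6, 6 and 5 fragments and q of 0.116 to 0.494. The H2O2 + BHBNa peaks had folds of 3.31, 3.31, 3.73 and 3.23 with 3 or 4 fragments and q of 0.116 to 0.326. The first of these, chr6:128883832-128884165, had its summit 844 bp downstream of the annotated start in the window shown above. It rested on 4 fragments over a background of 0.512, the highest background among H2O2 + BHBNa peaks in the 81 genes, and had a q of 0.326. Its H2O2 neighbour in the gene was 48.7 kb away.

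LAMA4, an alpha chain of vessel and mesenchymal basement membranes, held 2 H2O2 + BHBNa peaks 4.56 kb apart and no H2O2 peak. The first, on chromosome 6 at 112130073 to 112130332, had a fold of 4.72, the highest of the 57, from 5 fragments over a background of 0.272, with a q of 0.00871. The second reached 3.90 (q of 0.0668). Both also lay inside LOC107986633, which overlaps LAMA4.

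LAMA3, an alpha chain of epithelial basement membranes, had an H2O2 peak (chr18:23829333-23829587) of fold 3.48 from 4 fragments over 0.439 (q of 0.365) and 3 H2O2 + BHBNa peaks of folds 2.57 (chr18:23826508-23826837), 2.62 and 2.72 from 2 fragments each. Like length gives LAMA3 1.01 H2O2 + BHBNa peaks, and 53 of 568 genes of like length (9.33%) had as many. LAMA1, the alpha chain of early and of tubular basement membranes, had an H2O2 peak (chr18:7028022-7028284) of fold 3.14 from 3 fragments over 0.274 and H2O2 + BHBNa peaks of folds 2.72 (chr18:7030839-7031093) and 2.71 from 2 each. In LAMA3 and LAMA1 peaks of the lists came to within 2.79 and 2.84 kb, the closest in the 81 genes, without overlap. LAMB1 had an H2O2 peak of fold 2.89 (q of 0.518) and LAMB4 an H2O2 + BHBNa peak of fold 2.61 (q of 0.326). LAMA5, the alpha chain of the mature kidney basement membranes, and its partners LAMB2 and LAMC1 had 0 peaks in both lists. At like length 17.5% of genes like LAMA5 and 34.8% of those like LAMC1 had an H2O2 + BHBNa peak.

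Integrin genes had few peaks, in 1 of 25 in the H2O2 list and 4 of 25 after BHBNa pretreatment, where like length gives 2.8 and 5.92. Under the limit of 3 fragments the counts were 1 and 2, where like length gives 2.8 and 3.08. All peaks together come to 0.452 peaks per Mb (exact Poisson interval 0.0115 to 2.52) and 1.81 per Mb (0.493 to 4.63). Both intervals hold the value over all genes, so a difference from them was not detectable at this depth. In collagen genes the densities were 3.12 (1.96 to 4.73) and 5.82 (4.18 to 7.89), and in laminin genes 3.27 (1.2 to 7.13) and 6.55 (3.38 to 11.4). The values over all genes, 1.72 and 3.64, lay below the collagen intervals and inside the laminin ones. Collagen genes held 22 and 41 peaks, where like length gives 13.3 and 26.6, and COL25A1 alone gave 6 in each list. The intervals cover counting error only. Integrin genes are shorter, with a median span of 72.9 kb against 145 kb for collagens and 102 kb for laminins.

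ITGA1, the alpha subunit of a collagen receptor that pairs with the ITGB1 product, was the 1 integrin gene with peaks in both lists. Its H2O2 peak (chr5:52883681-52884027) had a fold of 3.66 with 4 fragments over 0.365 (q of 0.256), and its H2O2 + BHBNa peak (chr5:52810466-52810748) a fold of 3.50 with 3 over 0.143 (q of 0.0802), 73.4 kb apart. ITGB3, the beta subunit of the platelet fibrinogen receptor and of a vitronectin receptor, had an H2O2 + BHBNa peak on chromosome 17 at 47282335 to 47282607, with a fold of 3.63 from 3 fragments over 0.102 and a q of 0.0484. ITGA8, which pairs with the ITGB1 product and binds nephronectin in kidney development, had 1 of fold 2.67, and ITGAM, a leukocyte subunit, 1 of fold 2.52, from 2 fragments each. No peak was found in 3 laminin-binding alpha genes, ITGA3, ITGA6 and ITGA7, or in ITGB1, the beta subunit most of these alpha subunits share. The longest integrin gene, ITGA9 at 371 kb, also had 0 peaks in both lists, where 48.1% and 73% of genes of like length had a peak.

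None of the 29 and 57 peaks in the 81 genes overlapped a peak of the other list by 1 bp or more. Overlap was rare throughout, with 0.925% of the 2055 peaks in other protein-coding genes after H2O2 and 0.439% of 4331 after BHBNa pretreatment, so 0 says nothing particular of the 81. Over the 14 genes with peaks in both, the closest pair of the lists had a median distance of 23.8 kb, and in 4 of them (LAMA3, LAMA1, COL10A1 and COL21A1) it was under 10 kb. Over 791 other genes with peaks in both lists the median was 29.9 kb, and 34.5 kb at the lengths of these 14.

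**Figure D5:**
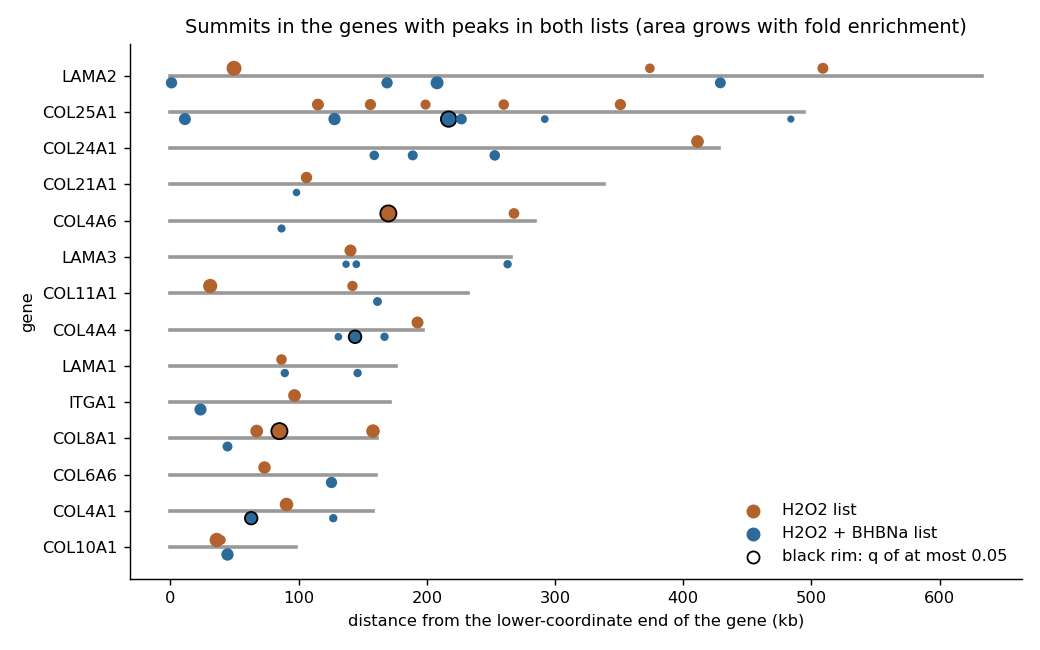
Summits along the 14 genes with peaks in both lists, with distance from the lower-coordinate end of the gene in kb (x axis) and genes ordered by span (y axis). Point area grows with fold enrichment and a black rim marks a q of at most 0.05. Points of the 2 lists coincide in none of the genes, and come closest in LAMA3 and LAMA1.

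All 29 and 57 summits lay inside the annotated spans. Exons and introns could not be told apart with the gene table used here. For genes with a known strand, the median distance to the nearest annotated start was 89.6 kb in the H2O2 list (23 peaks) and 119 kb in the H2O2 + BHBNa list (47 peaks). Past the midpoint of the gene, on its 3′ side, lay 13 of 23 H2O2 peaks, 56.5% (Wilson 95% interval 36.8 to 74.4), and 32 of 47 H2O2 + BHBNa peaks, 68.1% (53.8 to 79.6). In other genes of at least 100 kb the shares were 48.7% of 1334 and 47.8% of 2480 peaks. Members under 100 kb were kept in the member shares, so the sets compared differ in length. The peaks of a gene share that gene, so the intervals cover counting error only.

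Gene lists around these families gave counts above and below those of like length. Basement membrane partners such as nidogens, fibrillins and FREM proteins had a peak in 6 and 11 of 29 genes in the H2O2 and H2O2 + BHBNa lists, where like length gives 4.88 and 8.76. The highest folds were at FREM1 (4.5) and TINAG (4.3) in the H2O2 list, and at EFEMP1 (4.12, q of 0.0387) and FBN2 (3.39) in the H2O2 + BHBNa list. Enzymes and chaperones of collagen assembly and crosslinking had 2 and 3 of 31, where like length gives 3 and 6.21, with TLL1 (4.23) and ADAMTS3 (3.65) highest after H2O2 and TLL2 (3.63) and P3H2 (3.55) after BHBNa pretreatment. Focal adhesion genes, whose products join integrins to actin, had 3 and 10 of 30, where like length gives 4.91 and 8.75. CRKL (4.25) and PTK2 (3.43), the gene of focal adhesion kinase, were highest in the H2O2 list, and TNS3 and TLN2 (3.63 each) in the H2O2 + BHBNa list.

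Genes of TGF-beta signalling, a main inducer of collagen genes, had a peak in 3 and 4 of 26, where like length gives 3.68 and 6.96. BMPR1B had folds of 3.57 and 5.97, and in the H2O2 + BHBNa list LTBP1, which holds latent TGF-beta in the matrix, had 5.98 from 6 fragments (q of 8.04e-05). SMAD2 had 2.95 in the H2O2 list. Markers of fibroblasts and mesangial cells, endothelium, leukocytes and podocytes had 2 and 3 of 25, where like length gives 1.7 and 4. FLT1 (3.92) and GATA3 (3.18) were highest after H2O2 and VWF (4.62) and TEK (3.63) after BHBNa pretreatment. ITGAM, also planned as a leukocyte marker, is counted among the integrins, with its H2O2 + BHBNa peak of fold 2.52. Proximal tubule markers had 2 and 4 of 12, where like length gives 1.28 and 2.46, with CUBN at 4.05 and 4.38, LRP2 at 3.14 after H2O2 and PAX8 at 2.72 after BHBNa pretreatment. Peaks of a histone mark do not measure expression, so the labelled cell type was not checked by these lists.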

How the data were processed

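H3K4bhb ChIP-seq peaks of HK-2 cells were analysed for 2 treatments, from 4 libraries 1 IP and 1 control per treatment. MACS2 2.2.7.1, DiffBind, HOMER and ChIPseeker without versions, Bowtie2 2.4.2 and fastp 0.20.1 were used on GRCh38, per the submitters' processing notes. Their settings are not given in the sources used here. Values deposited by the authors are a score per peak (the whole part of 10 times its −log10 p), a fold enrichment ratio over control, the −log10 of p and of q, and a summit offset. A BED list filed under the IP library and a narrowPeak list filed under the control held the same peaks (100% of rows, starts 1 bp apart), so each treatment is 1 list. The lowest deposited −log10 p was 3.00 in both. No read totals were used, so depth is known only through the recovered background.

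Computed here were summits (start plus offset, 1-based), the genes they fall in, and the pileup and background, as the whole pileup k and background b for which k + 1 divided by b + 1 gives the fold and a Poisson law of mean b, exceeded beyond k, gives the p. In both lists 100% of peaks had such a solution, within 0.001 on the −log10 scale, or in proportion to it for very high peaks. Values at like length are means over all non-members with a span within 20% of each member. Strand and starts came from the RefSeq promoter table. Intervals are 95%. With 1 library per group no test was made. Every member with a peak was to be named, with values and place for the leading peaks of genes in both lists, and for genes at a q of at most 0.05, near a gene end, or among the 2 highest in fold or number. The members and lists were chosen with earlier results of these data known. Python 3.11.15, numpy 2.4.6, pandas 2.3.3, scipy 1.17.1 and matplotlib 3.10.9 were used, and scripts were tested on simulated data. Alternatives were limits on q, fold and pileup, other distances, any overlap of the peak, and ITGA2B as a member. The count without COL25A1, the overlap and distances between lists, the flanks and the position along the gene were added after seeing the data.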

Additional observations from a re-analysis of the deposited data

How the results depend on the processing

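Values give the H2O2 list first and the H2O2 + BHBNa list second. No paired analysis was possible because there was 1 library per group, and for the same reason no replicate could be left out. At a q of at most 0.05, 2 and 8 genes had a peak, with 2 and 8 peaks, and 0 genes had peaks in both lists. With at least 3 fragments the H2O2 + BHBNa list kept 21 genes and 30 peaks, and at a fold of at least 3 it had 20 genes and 28 peaks, with 9 genes in both lists. Under each of these 2 limits its laminin genes went from 5 to 2 and its integrin genes from 4 to 2. These limits remove peaks by construction, those of 2 fragments from the H2O2 + BHBNa list alone. The other 30 values of these counts stayed within 1.5 times the reported ones: summits strictly inside the span, any base of the peak within 1 kb and ITGA2B as a member changed none, and summits within 5 kb gave 18 and 34 genes. Without COL25A1, chosen after seeing the data, 16 and 31 genes had a peak. Like length within 10% gave 15 and 27.1 genes in place of 14.7 and 26.6. A limit of 50% on overlap left 0 overlapping pairs. At these peak densities 0 peaks in a short gene tell little.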
